A study of Mus musculus with 516 samples.

Results

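Rab GTPases are small GTP-binding proteins that sit on the membranes of the cell's compartments and steer vesicles between them. The Rab genes examined here are all genes of the count table whose symbol is Rab followed by a number and at most 1 letter, which gave 49 of 11251 genes. Their transcripts were counted in 516 single mouse cells, each sequenced on its own, from dorsal root ganglia, which hold the cell bodies of sensory neurons along with glia, fibroblasts and vessel cells. Animals of the inbred strains C57BL/6 and CAST/Ei were used. Cells were captured on a microfluidic chip either straight from the dissociated ganglion (naive) or after axotomy in vitro. For the latter, dissociated cells, which lose their axons, were kept on bare plastic for 48 h, with the mitotic inhibitor ara-C added at 24 h, and then detached with trypsin. The labels call those cells injured. They are called cultured here, since axon loss, time on plastic, ara-C and lifting cannot be told apart. Of the 516 cells, 25.6% were naive C57BL/6, 21.5% cultured C57BL/6, 33.7% naive CAST/Ei and 19.2% cultured CAST/Ei. No animal, culture or capture run is named, nor the age or sex of the mice, so each of the 4 groups was treated as 1 sample and nothing was tested between groups.

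A Rab protein switches between a GTP-bound form, which recruits effectors such as tethers, motors and membrane-modifying enzymes, and a GDP-bound form. Guanine nucleotide exchange factors load GTP, GTPase-activating proteins end the active state, and GDI proteins carry the prenylated, inactive Rab through the cytosol. In sensory neurons Rab proteins are known for filling and docking secretory vesicles and for carrying receptors and membrane along the axon. The members were ordered by the step they are best known for: regulated secretion (the Rab3 and Rab27 subfamilies and Rab37), the early endosome, the recycling endosome, the late endosome and lysosome, traffic through the endoplasmic reticulum and Golgi, and delivery to the cell surface or cilium.

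Promoter stretches are shown for 4 members described in the results below, and no level or ratio rests on these sequences. The 4 members were chosen after the values were seen. Rab31 and Rab27a differed between the naive strains, Rab3a had the highest level per length of the secretory Rabs in naive neurons, and Rab21 had very high reads in a few cultured cells. Each stretch is the 250 bases before the transcription start in RefSeq on build GRCm38.p6, written 5′ to 3′ on the gene's own strand. Capitals mark the GC-box GGGCGG and the E-box CACGTG on either strand. The stretches lie at chr17:65772753-65773002 (minus strand, Rab31), chr10:115315592-115315841 (minus, Rab21), chr8:70754453-70754702 (plus, Rab3a) and chr9:73044560-73044809 (plus, Rab27a). RefSeq and GENCODE can place a start differently, as for Rab3a.
Rab31: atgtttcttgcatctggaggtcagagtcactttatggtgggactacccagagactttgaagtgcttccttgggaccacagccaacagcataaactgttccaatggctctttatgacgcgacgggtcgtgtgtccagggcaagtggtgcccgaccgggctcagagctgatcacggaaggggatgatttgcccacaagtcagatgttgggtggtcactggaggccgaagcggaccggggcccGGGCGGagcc
Rab21: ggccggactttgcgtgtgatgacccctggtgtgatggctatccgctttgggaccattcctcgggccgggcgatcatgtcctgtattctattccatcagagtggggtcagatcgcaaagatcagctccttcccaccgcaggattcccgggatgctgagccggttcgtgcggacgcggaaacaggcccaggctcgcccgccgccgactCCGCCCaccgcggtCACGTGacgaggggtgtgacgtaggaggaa
Rab3a: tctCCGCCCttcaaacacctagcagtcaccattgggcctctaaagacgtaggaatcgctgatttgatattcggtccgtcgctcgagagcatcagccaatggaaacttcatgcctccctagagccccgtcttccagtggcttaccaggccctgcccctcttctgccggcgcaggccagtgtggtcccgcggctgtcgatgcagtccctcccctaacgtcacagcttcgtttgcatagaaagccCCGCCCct
Rab27a: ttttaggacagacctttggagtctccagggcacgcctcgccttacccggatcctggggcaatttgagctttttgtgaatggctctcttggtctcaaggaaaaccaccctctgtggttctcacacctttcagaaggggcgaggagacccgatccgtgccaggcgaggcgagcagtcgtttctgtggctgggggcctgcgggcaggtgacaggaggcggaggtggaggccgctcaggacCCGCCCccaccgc
RefSeq held a promoter for 41 of the 49 members. A GC-box lay in 75.6% of these 41, against 61.1% of the 8418 promoters of genes in the count table and 32.9% of all 27025 promoters of the same length. An E-box lay in 4 members (Rab5a, Rab20, Rab21 and Rab23), 9.76%, against 8.54% of table genes and 6.05% of all promoters. The AP-1 motif TGANTCA was found in Rab34 alone, against 3.85% of table genes and 6.87% of all promoters. The cyclic AMP response element TGACGTCA was found in Rab5a alone, against 2.91% and 1.62%. TATAAA lay in Rab3b, Rab7 and Rab39b, 7.32%, against 5.84% and 13%. The median GC content of the members' promoters was 62.8%, against 52% over all promoters. A match describes the letters only.

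The libraries held 13932 to 2978345 reads per cell with a median of 839147, without molecular identifiers. Cells were grouped into 15 clusters with the Rab genes left out, and clusters were classed as neuron-like or other from lists of marker genes. Neuron-like cells made up 87.9% of the naive C57BL/6 cells, 29.7% of the cultured ones (33 cells), 89.7% of the naive CAST/Ei cells and 60.6% of the cultured ones (60 cells). Other cells were 16 naive and 78 cultured ones of C57BL/6 and 18 naive and 39 cultured ones of CAST/Ei. Levels are given as CPM, the reads of a gene per 1000000 reads after summing the cells of a class, with exact 95% Poisson intervals where stated, which cover counting error only. Differences are log2 ratios of CPM + 1, and a gene counts as called when that ratio is at least 1 in size, a 2-fold difference. All but 2 of the cultured neuron-like cells fell into 2 clusters. Cluster 3 (22 C57BL/6 and 30 CAST/Ei cells) was led by genes such as Sprr1a, Gal and Sox11, which are known to respond to axon injury, with a median of 8990.5 genes with a read. Cluster 5 (10 and 29 cells) had a median of 4649 genes although its median depth, 1065060 reads, was higher than the 606192 of cluster 3. Neither cluster had a neuron marker among its 10 leading genes.

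Naive neurons of both strains carried a similar set of Rab transcripts. Scaled per kilobase of exon, the 6 highest members were the same in both strains: Rab3a of synaptic vesicles, Rab11a of recycling endosomes, Rab6a of the Golgi, Rab1 of transport from the endoplasmic reticulum to the Golgi, Rab14 of endosomes and Rab2a of the Golgi. Their order differed. Rab3a led in C57BL/6 at 171.3 CPM per kilobase, followed by Rab11a at 155.03 and Rab6a at 141.7. Rab1 led in CAST/Ei at 211 CPM per kilobase, followed by Rab11a at 179 and Rab6a at 148.1. The 49 members together took 0.531% of all reads of naive C57BL/6 neuron-like cells and 0.550% of those of CAST/Ei. At the other end, Rab43 in C57BL/6 and Rab38 in CAST/Ei lay at 0.648 and 0.295 CPM per kilobase.

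**Figure D1:**
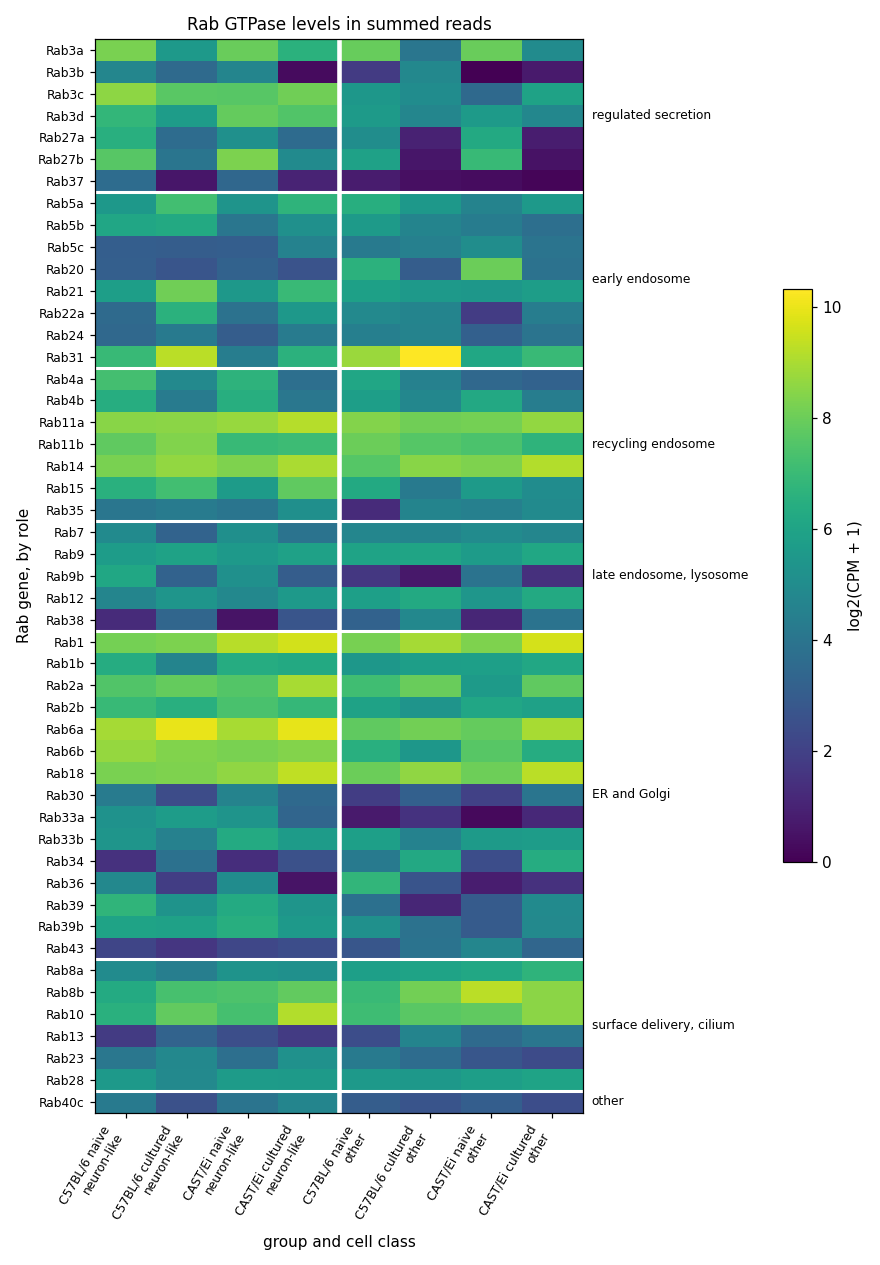
Level of each of the 49 Rab genes (rows, by role) as log2(CPM + 1) of summed reads in the 4 groups of neuron-like cells (left) and of other cells (right). Rab3a and Rab27b are bright in both naive neuron-like columns and darker in the cultured ones, and Rab31 is brightest in the other cells of cultured C57BL/6.

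Within the naive neurons, several secretory Rabs differed in level between kinds of cell. Clusters are named here by a leading gene: Mrgpra3 and Mrgprd mark kinds of nonpeptidergic nociceptor, Tac1 encodes substance P, Th marks low-threshold mechanoreceptors, Nppb marks itch neurons and Nefh marks large myelinated neurons. Rab3b, a Rab3 paralog of secretory vesicles, was highest in the Tac1-high cluster of each strain. It reached 90.9 CPM there in C57BL/6, against 1.93 CPM in the Mrgprd-high cluster, and 126.8 CPM in CAST/Ei, against 1.01 CPM in the Nppb-high cluster. In single Tac1-high C57BL/6 cells Rab3b ran from 0 to 388 CPM with a median of 75.9, while in CAST/Ei it ran from 0 to 698 CPM with a median of 11.51. In CAST/Ei 1 cell gave 41.3% of all Rab3b reads of naive neuron-like cells, so its level there rests more on few cells.

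Rab27b, which tethers dense-core and lysosome-related granules, was highest in the Mrgprd-high clusters. Its level was 523 CPM there in C57BL/6, against 33.6 CPM in the Nefh-high cluster, and 706 CPM in CAST/Ei, against 19.2 CPM in the Nppb-high cluster. No Mrgprd-high cell lacked it: single cells ran from 151.8 to 1026 CPM with a median of 514 in C57BL/6, and from 219 to 1156 CPM with a median of 633 in CAST/Ei. The Nefh-high cells of C57BL/6 ran from 0 to 82.3 CPM and the Nppb-high cells of CAST/Ei from 2.41 to 60.8 CPM, so neither range reached that of the Mrgprd-high cells of its strain. Its paralog Rab27a was highest in the Mrgpra3-high cluster of C57BL/6, at 204 CPM, against 13.6 CPM in the Th-high cluster. In CAST/Ei Rab27a was highest in the Nppb-high cluster, at 59.3 CPM, against 14.6 CPM in the Mrgprd-high cluster. Rab33a, a Rab of the Golgi and of axonal vesicles, was highest in the Mrgpra3-high clusters of both strains, at 80.8 CPM and 66.6 CPM, against 8.82 CPM and 9.21 CPM in the Th-high clusters. In C57BL/6 Rab31 differed 9.33-fold between the Nefh-high (285 CPM) and Mrgprd-high (30.6 CPM) clusters. In CAST/Ei Rab13, which has few reads, differed 19.5-fold between the Nppb-high (14.5 CPM) and Th-high (0.741 CPM) clusters.

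Most members were more even than this. In C57BL/6, 10 of the 44 members with at least 10 CPM in a cluster differed 4-fold or more between the 5 clusters of 10 cells or more. That is 22.7%, against 35.1% of all genes held to the same rule. In CAST/Ei the count was 9 of 45, or 20%, against 26.4%. The members' share thus lay below that of all genes in both strains.

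**Figure D2:**
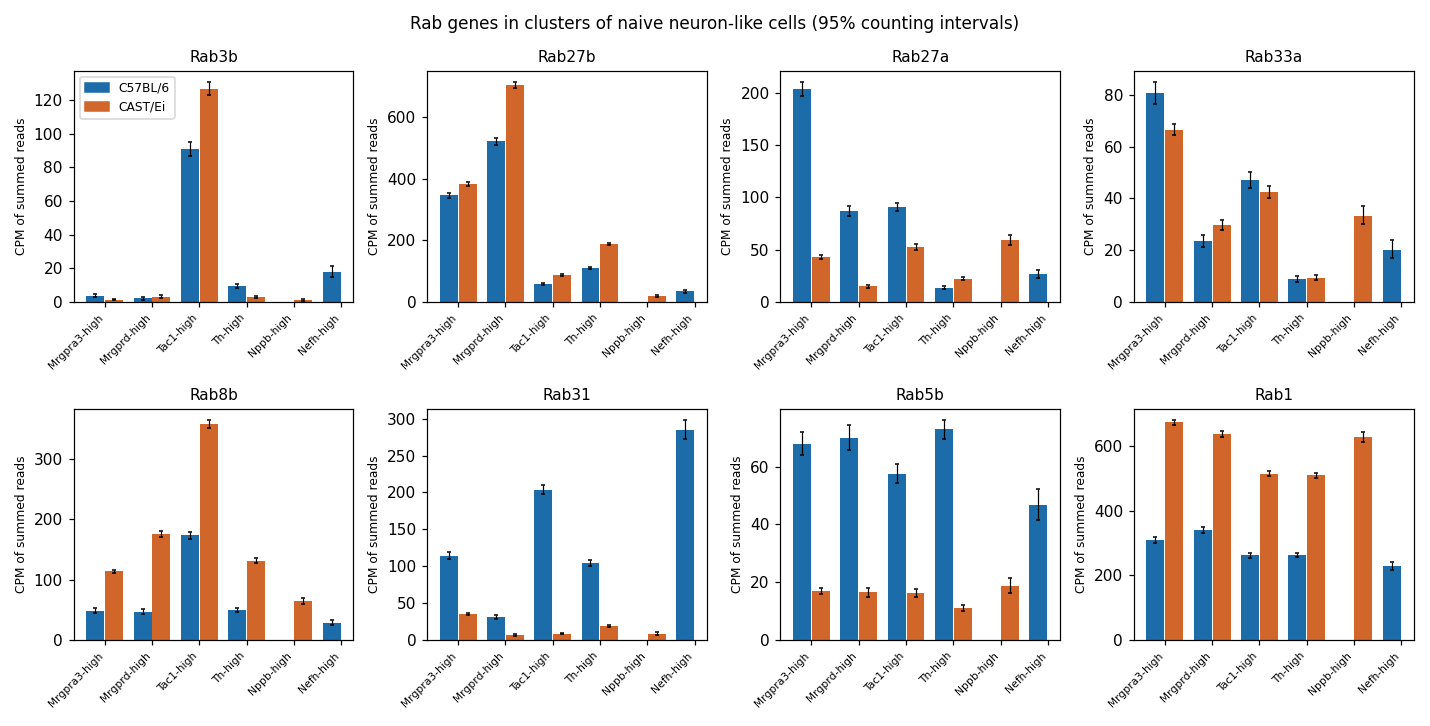
CPM of 8 Rab genes in the clusters of naive neuron-like cells, with C57BL/6 in blue and CAST/Ei in orange. Bars are summed reads and error bars are 95% Poisson intervals; the Nppb-high cluster is shown for CAST/Ei and the Nefh-high cluster for C57BL/6, where each has 10 cells or more. Rab3b peaks in Tac1-high and Rab27b in Mrgprd-high cells, and Rab5b is lower and Rab1 higher in CAST/Ei in all 4 paired clusters.

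In naive neurons Rab genes were called between the strains at shares near those of all genes. Of the 49 members, 3 (6.12%) were called higher in CAST/Ei, where 7.29% of all genes were. Another 3 (6.12%) were called lower, where 6.25% of all genes were. The median log2 ratio was 0.01 over the members and 0.06 over all genes. All 3 lower members, Rab31, Rab5b and Rab27a, passed the 2-fold line under each of 10 other settings of scaling, filter and classing, as did Rab3d among the higher ones. The genome build named for these data, mm10, is a C57BL/6 sequence, which CAST/Ei reads match less well, and the part of this in the strain differences was not tested.

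Rab31 (chr17:65651729-65772752 in GENCODE on GRCm38, the build of all gene positions below), a Rab5-related protein of early endosomes and the trans-Golgi network, ran from 0 to 767 CPM in single naive C57BL/6 neuron-like cells, with a median of 76.2. In naive CAST/Ei cells it ran from 0 to 180 CPM with a median of 2.13. The ranges overlap at the low end, and no CAST/Ei cell reached the upper part of the C57BL/6 range. The summed levels were 124.6 CPM (122.4 to 126.9) and 19.6 CPM (18.9 to 20.3), a log2 ratio of -2.61. The direction was the same in each kind of neuron: the log2 ratio was -1.66 in Mrgpra3-high, -1.99 in Mrgprd-high, -4.43 in Tac1-high and -2.36 in Th-high clusters. With cells of high glial markers left out of the class it was -2.24.

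Rab5b (chr10:128677175-128696264), 1 of the 3 Rab5 paralogs that govern fusion of early endosomes, had at least 2.02 CPM in every naive C57BL/6 neuron-like cell, with a median of 51.8 and a highest value of 194. In CAST/Ei it ran from 0 to 91.6 CPM with a median of 7.06. Rab5b was thus seen in every C57BL/6 cell of the class, while 22 CAST/Ei cells had no read. The summed levels of 68.8 and 15.4 CPM gave a log2 ratio of -2.09, and the 4 paired clusters gave -1.95 (Mrgpra3-high), -2.02 (Mrgprd-high), -1.76 (Tac1-high) and -2.62 (Th-high). Rab5a, its paralog, stood at 44.1 and 39.6 CPM, a log2 ratio of -0.15. Per kilobase, Rab5b made up 49.1% of the Rab5 transcripts in naive C57BL/6 neurons and 19.1% in CAST/Ei.

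The Rab27a ratio differed in size between kinds of neuron. Summed, it stood at 90.4 CPM in C57BL/6 and 35.6 CPM in CAST/Ei, a log2 ratio of -1.32. The ratio was -2.23 in Mrgpra3-high and -2.50 in Mrgprd-high clusters, -0.78 in Tac1-high clusters and 0.65, with the opposite sign, in Th-high clusters. Its paralog Rab27b went the other way, from 197 to 316 CPM, a log2 ratio of 0.68. Rab27b accordingly made up 47.8% of the pair per kilobase in C57BL/6 and 78.9% in CAST/Ei. The difference between kinds of neuron was not tested.

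Higher in naive CAST/Ei were Rab8b, which carries vesicles to the plasma membrane, Rab3d of secretory granules, and Rab1. Rab8b stood at 79.1 and 170.8 CPM, Rab3d at 111.9 and 236 CPM, and Rab1 at 289 and 596 CPM, with log2 ratios of 1.10, 1.07 and 1.04. Within the Mrgpra3-, Mrgprd-, Tac1- and Th-high clusters Rab1 gave 1.12, 0.91, 0.97 and 0.95. Rab8b gave 1.20, 1.88, 1.04 and 1.39, and Rab3d gave 1.16, 1.10, 0.71 and 0.69, so the sign held in all 4 pairs for each of the 3 genes. In single cells Rab1 ran from 38.6 to 614 CPM with a median of 302 in C57BL/6 and from 81.5 to 1921 CPM with a median of 504 in CAST/Ei, and these ranges overlap widely. Next in order were Rab33b at 0.93 and Rab9b at -0.93. The other representatives lay within 0.43 of 0: Rab3a at -0.32, Rab11a at 0.21, Rab7 at 0.21 and Rab6b at -0.43.

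The summed level of all Rab transcripts differed less between naive and cultured neuron-like cells than that of some roles. The 49 members took 5313 CPM in naive and 6004 CPM in cultured C57BL/6 neuron-like cells, and 5499 and 7275 CPM in CAST/Ei. In C57BL/6, 10 members were called higher, where 20.5% of all genes were, and 15 lower, where 24.7% of all genes were. In CAST/Ei, 14 were called higher, where 22.9% of all genes were, and 12 lower, where 23% of all genes were. Higher and lower members made up 20.4% and 30.6% for C57BL/6 and 28.6% and 24.5% for CAST/Ei, near the background. The members' median log2 ratio was -0.05 in C57BL/6 and 0.24 in CAST/Ei, beside -0.17 and -0.01 for all genes. Scaling by the median of ratios moved the C57BL/6 medians to 0.11 for members and -0.01 for all genes, with 10 members higher and 14 lower. The comparisons of the strains share no cells, and 42 of 49 members, 85.7%, had the same sign in both, as did 71.8% of all genes. Lower in both strains were 11 members, 22.45%, against 13.97% of all genes, and higher in both 7, 14.29%, against 12.12%. The 11 lower ones (73.3% of the 15 and 91.7% of the 12) were Rab3a, Rab3b, Rab4a, Rab4b, Rab7, Rab9b, Rab27a, Rab27b, Rab30, Rab36 and Rab37. The 7 higher ones (70% of the 10 and 50% of the 14) were Rab5a, Rab10, Rab21, Rab22a, Rab31, Rab34 and Rab38. None was called in opposite directions.

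Single cells weigh heavily in the cultured sums. With each gene's sum taken without the cell that gives it most reads, a choice made after seeing the data, 14 members were lower in both strains (28.6%, against 22.3% of all genes) and 4 were higher in both (8.16%, against 8.50%). The 4 were Rab10, Rab31, Rab34 and Rab38, so Rab5a, Rab21 and Rab22a left that group. All 11 members lower in both strains stayed lower. This choice takes more from the smaller cultured classes and moved the median of all genes to -0.49 in C57BL/6 and -0.45 in CAST/Ei.

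**Figure D3:**
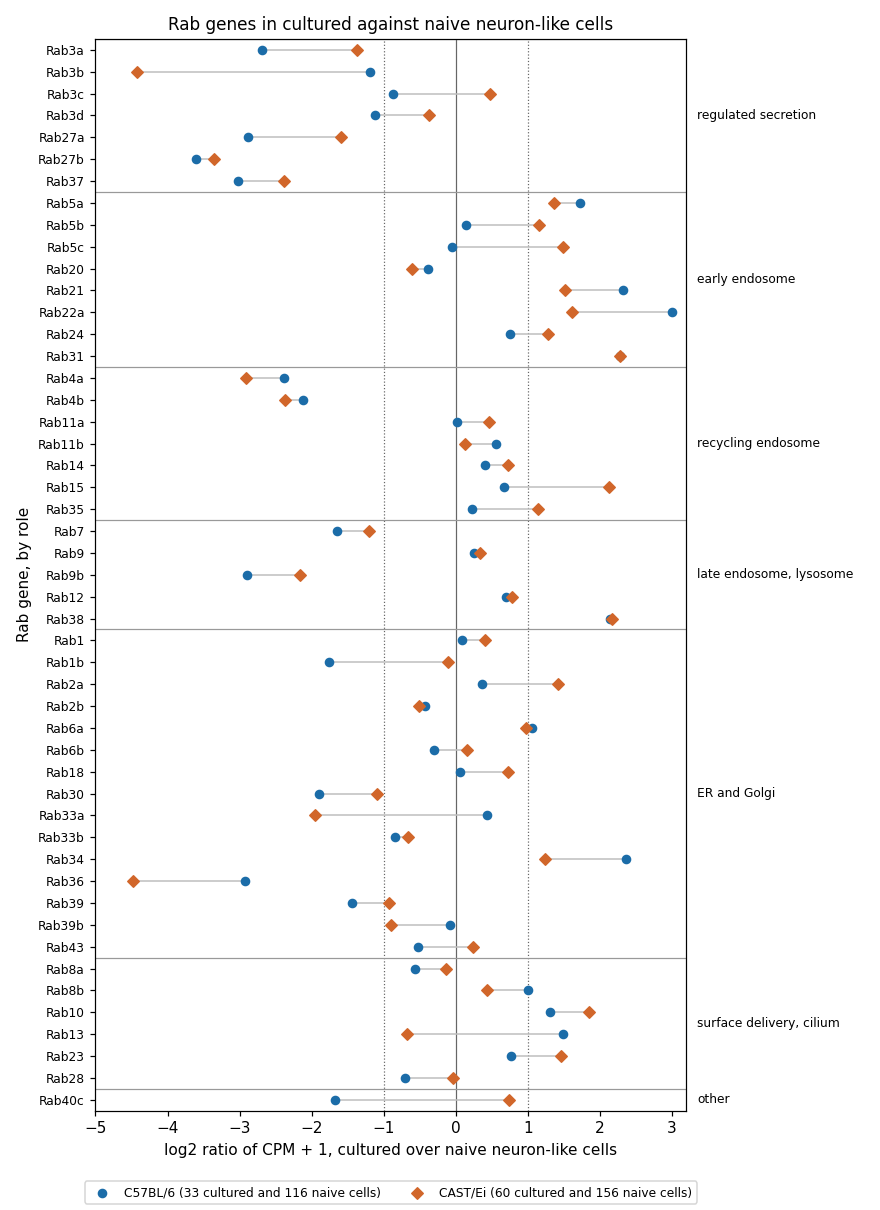
Log2 ratio of CPM + 1 in cultured over naive neuron-like cells for the 49 Rab genes by role, with C57BL/6 as blue circles and CAST/Ei as orange diamonds. Dotted lines mark a 2-fold difference. Secretory members lie mostly left of 0, while Rab5a, Rab21, Rab22a and Rab31 lie right of 0 in both strains.

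Of the roles with more than 1 member, regulated secretion had the highest share of members called lower in both strains. Of its 7 members, 6 were called lower in C57BL/6 and 5 in CAST/Ei, beside 24.7% and 23% of all genes, and none was called higher. The counts were 7 and 5 without the cell of most reads. Their median log2 ratios were -2.68 and -1.59. Their summed level went from 1118 to 340 CPM in C57BL/6 and from 1065 to 593 CPM in CAST/Ei. Rab3c in CAST/Ei, at 0.47, was the exception in sign. The neuron marker list also had a lower summed level in culture, 37225 and 25400 CPM in C57BL/6 and 26936 and 20364 CPM in CAST/Ei. Of its 20 genes, 6 and 8 were called lower and 3 and 2 higher. Of all genes, 24.7% and 23% were called lower and 20.5% and 22.9% higher. The part of the neuron markers in the secretory ratios was not tested.

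Rab3a (chr8:70754679-70758677), the main Rab3 of synaptic vesicles, ran from 52.8 to 1584 CPM in single naive C57BL/6 neuron-like cells with a median of 262, and from 0 to 172.2 CPM with a median of 27.4 in cultured ones. In CAST/Ei it ran from 20.6 to 858 CPM with a median of 233 in naive cells, and from 0 to 786 CPM with a median of 19.3 in cultured ones. Every naive neuron-like cell of both strains had a Rab3a read, and in C57BL/6 the highest cultured cell lay below the naive median. The C57BL/6 ranges overlap largely through cluster 5. Its median of 74.4 CPM lay above the lowest naive cell, while that of cluster 3 was 22.4 CPM. In CAST/Ei the highest cultured cell, of cluster 5, gave 25.8% of the cultured reads. Summed levels of 306 and 46.9 CPM in C57BL/6, and of 246 and 94.5 CPM in CAST/Ei, gave log2 ratios of -2.68 and -1.37. In cluster 3 alone the ratios were -3.66 and -3.22. The CAST/Ei call was lost without the cells of highest glial markers (-0.87) and in cluster 5 alone (-0.88). The glial list had a mean log2(CPM + 1) of 5.43 in cluster 3 and 3.18 in cluster 5. Leaving out the cells of highest glial markers may thus keep mostly cells of cluster 5. Exons of Rab3a overlap those of Mpv17l2 on the opposite strand, and whether counting used strand is not given in the sources used here. Rab2b, Rab5a, Rab6a, Rab24 and Rab27a also have exons that overlap other genes. The part of such overlaps in the levels of these genes was not tested.

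Rab27b ran from 0 to 1026 CPM with a median of 129.8 in naive C57BL/6 cells and from 0 to 377 CPM with a median of 0 in cultured ones. In CAST/Ei it ran from 0 to 1156 CPM with a median of 238 in naive cells and from 0 to 659 CPM with a median of 1.44 in cultured ones. A Rab27b read was present in 96.6% and 98.1% of the naive cells, against 36.4% and 60% of the cultured ones. Summed levels of 197 and 15.2 CPM, and of 316 and 30.1 CPM, gave log2 ratios of -3.61 and -3.349. These are held up by single cells: 79.3% of the cultured C57BL/6 reads came from the 1 cultured cell that clustered with naive Mrgprd-high cells, and 47.2% of the CAST/Ei reads from the 1 that clustered with Mrgpra3-high cells. Without the cell of most reads the ratios were -5.48 and -4.17. Since Rab27b was highest in Mrgprd-high cells, and the kinds of neuron could not be traced through culture, a different mix of neurons and a different level per neuron cannot be told apart here, nor for any ratio below.

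Rab27a, Rab37 and Rab3b were also called lower in both strains. Rab27a went from 90.4 to 11.4 CPM in C57BL/6 (-2.88) and from 35.6 to 11.1 CPM in CAST/Ei (-1.59). Rab37, a Rab of secretory granules with low reads, went from 11.4 to 0.533 CPM (-3.02) and from 9.81 to 1.07 CPM (-2.39). Rab3b went from 25.8 to 10.7 CPM in C57BL/6 (-1.19) and from 25.2 to 0.227 CPM in CAST/Ei (-4.42), and 13 of the 14 cultured CAST/Ei reads came from 1 cell. The Rab3b call in C57BL/6 was lost under 3 of the 10 settings, with -0.47 for the mean of each cell's CPM, and in cluster 3 alone (-0.73). The Rab37 call in CAST/Ei was lost with a pseudocount of 10 CPM (-0.84). Rab3d was called lower in C57BL/6, from 111.9 to 51.1 CPM (-1.11), and stood at -0.37 in CAST/Ei. The Rab3d call was lost with median-of-ratios scaling (-0.94). Rab3c, another Rab3 of synaptic vesicles, went from 376 to 204 CPM in C57BL/6 (-0.88) and from 197 to 273 CPM in CAST/Ei (0.47) and was not called.

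**Figure D4:**
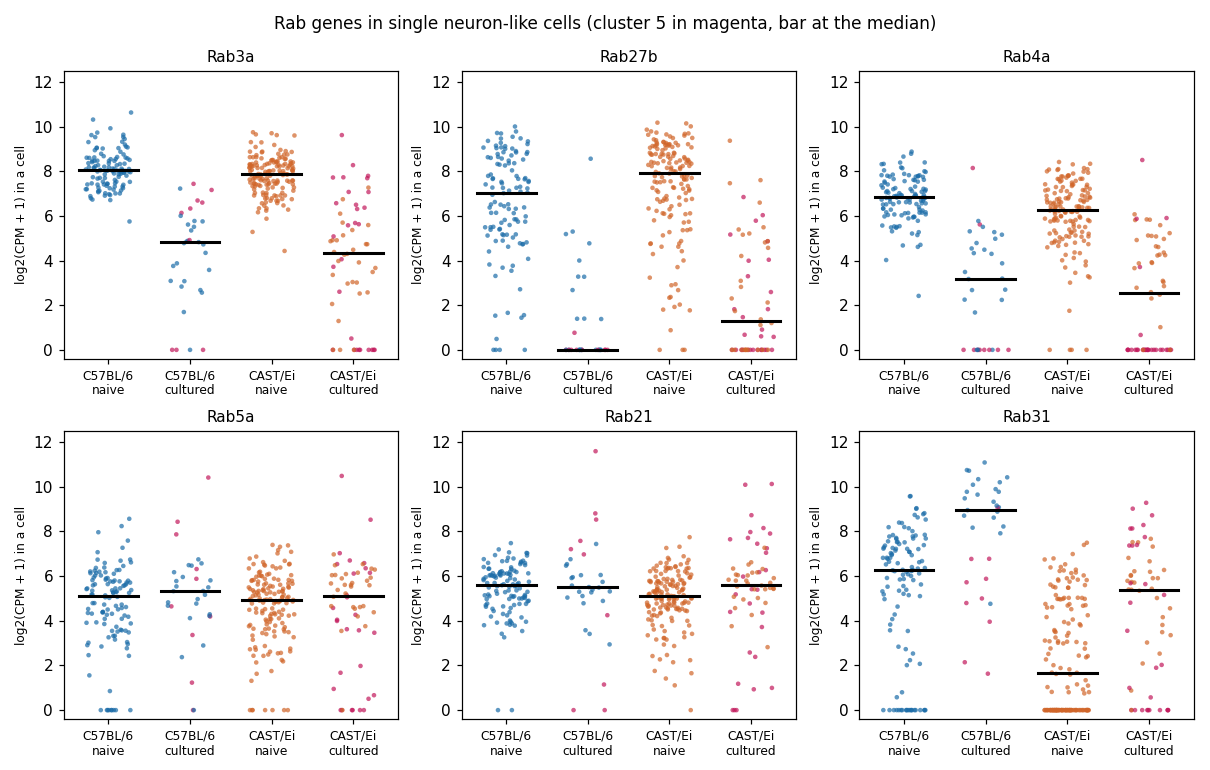
Log2(CPM + 1) of 6 Rab genes in single neuron-like cells of the 4 groups, with the median as a black bar, C57BL/6 in blue, CAST/Ei in orange and cells of cluster 5 in magenta. Medians of Rab3a, Rab27b and Rab4a are lower in both cultured groups. Medians of Rab5a and Rab21 are nearly level across groups, with a few very high cells of cluster 5 in culture, and the median of Rab31 is higher in both cultured groups.

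The summed level of the early endosomal Rabs was higher in culture. Rab31, described further on, made up the largest part of this sum in cultured C57BL/6 cells, and in that strain 1 cell each gave 53.2%, 64.8% and 91.2% of the Rab5a, Rab21 and Rab22a reads. Of 8 members, 4 were called higher in C57BL/6 and 7 in CAST/Ei, beside 20.5% and 22.9% of all genes, with none lower, and the median log2 ratios were 1.24 and 1.42. Without the cell of most reads for each gene, 1 was higher and 1 lower in C57BL/6, and 4 were higher and 1 lower in CAST/Ei. The summed level went from 328 to 1234 CPM in C57BL/6 and from 155.7 to 457 CPM in CAST/Ei. Rab22a, which acts in early endosomes and recycling, went from 10.96 to 94.6 CPM in C57BL/6, a log2 ratio of 2.998. Without the cell of most reads, which is in cluster 5, the ratio was -0.15. In single cells its median was 4.03 CPM in naive and 7.43 CPM in cultured C57BL/6 cells.

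Rab21 (chr10:115287084-115315594), which carries integrins through early endosomes, ran from 0 to 177 CPM with a median of 48 in naive C57BL/6 cells and from 0 to 3094 CPM with a median of 44.6 in cultured ones. In CAST/Ei it ran from 0 to 214 CPM with a median of 33.7 in naive cells and from 0 to 1118 CPM with a median of 48.3 in cultured ones. The medians differ little, and the high cultured values stand in a few cells. The summed log2 ratios were 2.31 and 1.51. They were -0.18 and 0.33 in cluster 3 and 3.45 and 1.94 in cluster 5, and without the cell of most reads they were 0.97 and 1.23. Rab5a (chr17:53479234-53507680) ran from 0 to 379 CPM with a median of 33.4 in naive C57BL/6 cells and from 0 to 1365 CPM with a median of 39.2 in cultured ones, and in CAST/Ei the medians were 29.5 and 33.6 CPM. Its ratios were 1.72 and 1.36 summed, -0.05 and 0.21 in cluster 3, and 0.83 and 0.37 without the cell of most reads, which gave 53.2% of the cultured reads in each strain.

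Cluster 5 stood apart in summed level for other members too. In C57BL/6 its level against that of cluster 3 was 606 against 48.1 CPM for Rab21, 299 against 42.5 CPM for Rab5a and 1840 against 430 CPM for Rab6a of the Golgi. In CAST/Ei it was 171.9 against 55.6 CPM for Rab21, 138.96 against 46 CPM for Rab5a, 1304 against 483 CPM for Rab6a and 328 against 55.9 CPM for Rab15, a Rab of the recycling endosome. For Rab15 the strains differed. Its median per cell in cluster 5 against cluster 3 was 199.6 against 46 CPM in CAST/Ei, but 57.3 against 131.6 CPM in C57BL/6. Rab6a differed in most cells and not in a few: its median per cell was 419 CPM in cluster 3 and 1468 CPM in cluster 5 in C57BL/6, and 428 and 929 CPM in CAST/Ei. For Rab5a those medians were 37 and 41 CPM in C57BL/6 and, with cluster 5 lower, 47.8 and 14.9 CPM in CAST/Ei. For Rab21 they were 42.5 and 135.8 CPM in C57BL/6 and, again with cluster 5 lower, 48.3 and 41.7 CPM in CAST/Ei. Cells of cluster 5 had reads of fewer genes, as given above, and the part of that in these levels was not tested.

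**Figure D5:**
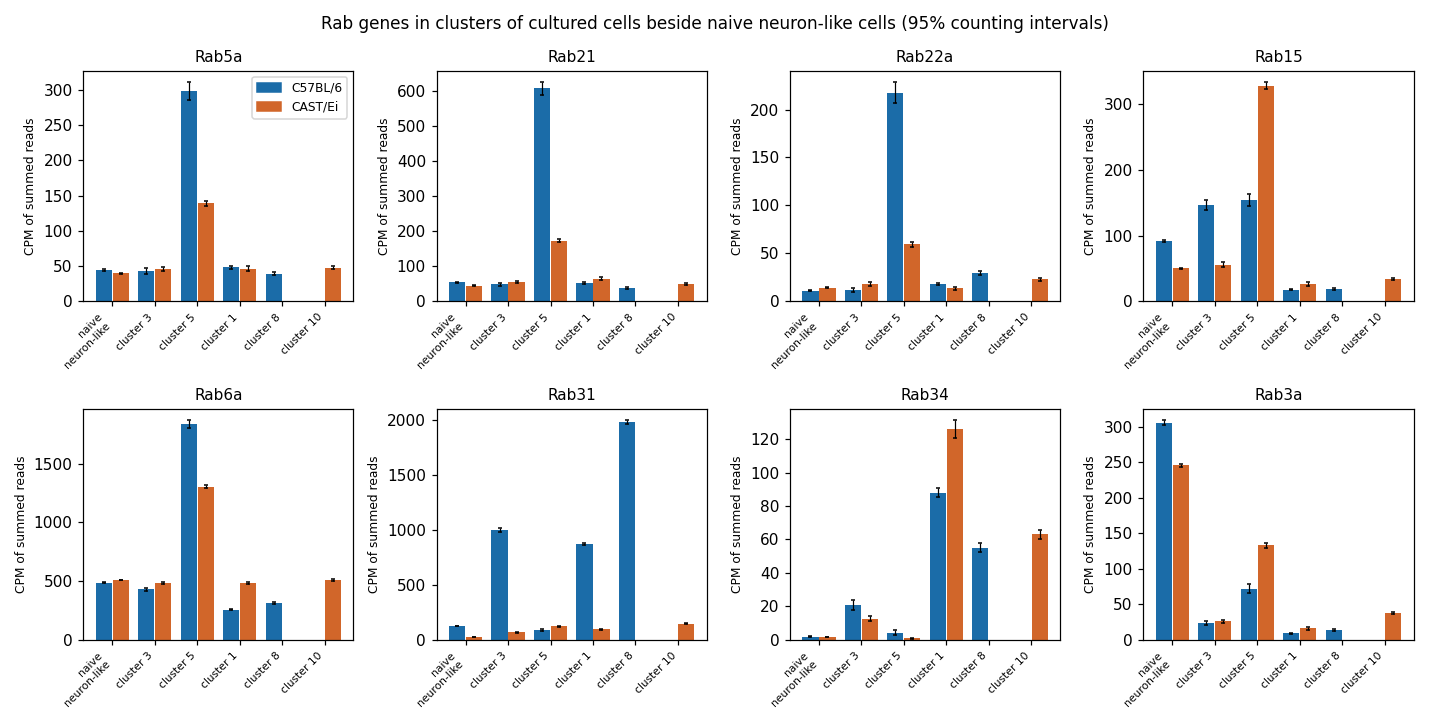
CPM of 8 Rab genes in naive neuron-like cells and in clusters of cultured cells with 10 or more cells of a strain (3 and 5 neuron-like, 1, 8 and 10 other), with C57BL/6 in blue, CAST/Ei in orange and 95% Poisson intervals. Rab5a, Rab21, Rab22a and Rab6a are highest in cluster 5, while Rab31 in C57BL/6 is highest in cluster 8 and Rab34 in cluster 1.

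Rab31 was higher in culture in both strains, by a log2 ratio of 2.28 in each. In C57BL/6 single cells ran from 0 to 767 CPM with a median of 76.2 in naive cells and from 2.10 to 2180 CPM with a median of 496 in cultured ones. In CAST/Ei they ran from 0 to 180 CPM with a median of 2.13 and from 0 to 623 CPM with a median of 41.1. The cultured range reaches well above the naive one in each strain, with overlap below. In C57BL/6 the higher level lay in cluster 3 (996 CPM) and not in cluster 5 (87.8 CPM, log2 ratio -0.50), while in CAST/Ei the 2 clusters stood at 66.9 and 119.4 CPM.

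The other cultured cells of C57BL/6 had still more Rab31. It stood at 1982 CPM in cluster 8, whose highest marker list was that of satellite glia and Schwann cells, and at 867 CPM in cluster 1, where the fibroblast list was highest. In CAST/Ei the other clusters stood at 143.1 CPM (cluster 10, glial list) and 94.2 CPM (cluster 1). Rab31 was also among the 10 leading genes of cluster 8. With cells of high glial markers left out of the class, which left 12 of the 33 cultured C57BL/6 cells, the culture ratio was 0.05 in C57BL/6 and 2.51 in CAST/Ei. The cells kept may mostly be those of cluster 5, where the mean of the glial list was 3.18, against 5.43 in cluster 3. Within the cultured neuron-like class, 10 of 15 glial markers were called higher than in naive cells in each strain, with summed levels of 3484 and 3071 CPM in C57BL/6 and 2836 and 3196 CPM in CAST/Ei. Of 11 fibroblast markers 9 and 8 were called higher, with sums of 430 and 1557 CPM and of 484 and 1548 CPM. Of all genes, 20.5% and 22.9% were called higher. Thy1 is in both the neuron and the fibroblast list. Gfra3 and S100b of the glial list were leading genes of the naive Tac1-high and Nefh-high clusters. Neither list thus reads other cell types alone. All 8 cell cycle genes were higher, from 5.29 to 898 CPM and from 9.20 to 791 CPM, and no gene of these lists was at 0 in any neuron-like group. The part of such markers in the Rab31 ratios, beyond the values given, was not tested.

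In the recycling endosome the Rab4 pair was lower and Rab11a was nearly level. Rab4a, which returns receptors quickly to the surface, ran from 4.34 to 470 CPM with a median of 113.02 in naive C57BL/6 cells and from 0 to 282 CPM with a median of 8.03 in cultured ones. In CAST/Ei it ran from 0 to 340.1 CPM with a median of 76.9, and from 0 to 362 CPM with a median of 4.77. No naive C57BL/6 cell lacked a Rab4a read, while 11 of the 33 cultured ones did. The log2 ratios were -2.38 and -2.90 for Rab4a and -2.12 and -2.37 for Rab4b, and both genes stayed 2-fold lower in each strain under all 10 settings tried. Rab11a, the slow recycling Rab, stood at 362 and 368 CPM in C57BL/6 (0.02) and at 418 and 576 CPM in CAST/Ei (0.46). Rab15 was called higher in CAST/Ei, from 50.1 to 223 CPM (2.13), against 0.67 in C57BL/6, and in CAST/Ei cluster 3 alone its ratio was 0.15.

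In the late endosome, Rab7, which drives fusion with lysosomes and marks retrograde signalling endosomes, went from 29.4 to 8.71 CPM in C57BL/6 (-1.64) and from 34.2 to 14.3 CPM in CAST/Ei (-1.20). Rab9b went from 69.3 to 8.41 CPM (-2.90) and from 35.8 to 7.22 CPM (-2.16), while its paralog Rab9, which acts in transport from late endosomes to the Golgi, stood at 0.25 and 0.33 and was not called. Rab38, a Rab of lysosome-related organelles with low reads, went from 1.38 to 9.48 CPM (2.14) and from 0.465 to 5.57 CPM (2.16). Rab38 had 14.1 to 26.9 CPM in the other cultured cells. The Rab7 call was lost in both strains with the mean of each cell's CPM (-0.40 and -0.86), and the Rab38 call with a pseudocount of 10 CPM (0.77 and 0.57).

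Among Rabs of the endoplasmic reticulum and Golgi, Rab36, which binds lysosome-positioning effectors, was lowest: from 26.98 to 2.67 CPM in C57BL/6 (-2.93) and from 31.7 to 0.469 CPM in CAST/Ei (-4.48). Rab6b, the neuronal Rab6, stood at -0.30 and 0.16, and Rab6a at 1.05 and 0.97. Rab34, which acts at the cilium and Golgi, went from 1.79 to 13.3 CPM (2.36) and from 1.53 to 4.98 CPM (1.24), and reached 75.02 and 82.3 CPM in the other cultured cells. The Rab34 ratio in CAST/Ei was -0.96 without the cells of highest glial markers and -0.48 in cluster 5 alone, settings that may share many cells. Of the surface-delivery Rabs, Rab10, which supplies membrane to growing axons and dendrites, was higher in both cultured clusters. Its medians per cell went from 78.99 to 146.8 CPM in C57BL/6 and from 123.4 to 276 CPM in CAST/Ei. The summed ratios were 1.31 and 1.85, with 1.11 and 0.96 in cluster 3 and 1.62 and 2.23 in cluster 5.

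Within subfamilies, shares per kilobase of Rab3a, Rab6a and Rab9b moved the same way in both strains. Rab3a made up 68.7% of Rab3 transcripts in naive and 40.2% in cultured C57BL/6 neuron-like cells, and 60.7% and 40.7% in CAST/Ei, while Rab3c went from 16.9% to 35.2% and from 9.8% to 23.7%. Rab6a went from 63.5% to 81.6% of the Rab6 pair and from 71% to 81.1%. Rab9b went from 33% to 4.8% of the Rab9 pair and from 21.9% to 4.3%. Rab5b went from 49.1% to 26.6% of Rab5 transcripts in C57BL/6 and from 19.1% to 16.9% in CAST/Ei, and with the mean of each cell's CPM in place of the sum the CAST/Ei values were 18% and 18.9%. Rab11a made up 81% and 74.7% of the Rab11 pair in C57BL/6 and 90% and 91.9% in CAST/Ei. The Rab1, Rab2 and Rab9 subfamilies were added after seeing the data.

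Between the cultured strains, 10 members were called higher in CAST/Ei, where 22.3% of all genes were, and 11 lower, where 14.8% of all genes were. Scaling by the median of ratios gave 6 higher and 11 lower. Rab40c, whose subfamily joins ubiquitin ligases, stood at 4.92 and 25.1 CPM in C57BL/6 and CAST/Ei (2.14), but 71.1% of the CAST/Ei reads came from 1 cell, and the ratio was 0.78 without the cell of most reads. Rab3d stood at 51.1 and 182 CPM (1.81), Rab1b at 24.2 and 76.9 CPM (1.63) and Rab5c at 7.23 and 22.8 CPM (1.53). Lowest in CAST/Ei were Rab3b (-3.26), Rab31 (610 and 98.8 CPM, -2.61), Rab33a (51 and 9.42 CPM, -2.32) and Rab11b (-1.28). The Rab31 difference was as large as in naive cells. It was 0.22 without the cells of highest glial markers and 0.44 in cluster 5, settings that may share many cells. Rab3b and Rab33a stayed 2-fold lower, and Rab1, Rab1b, Rab3d and Rab10 2-fold higher, under all 10 settings. Cluster 3 alone is not among the 10. There medians per cell in C57BL/6 and CAST/Ei were 48.3 and 43.1 CPM for Rab3d and 22.4 and 28.5 CPM for Rab1b. They were 464.9 and 810.9 CPM for Rab1 and 142.9 and 257.1 CPM for Rab10. Rab3b (11.2 and 0 CPM) and Rab33a (47.4 and 16.6 CPM) were lower in CAST/Ei. The strains differed in their mix of clusters 3 and 5, and the part of this was not tested. Rab3a (0.997, just under the line), Rab27b (0.94), Rab5a (-0.51), Rab11a (0.65), Rab7 (0.66) and Rab6b (0.03) were not called.

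Taking the culture ratio of CAST/Ei minus that of C57BL/6, 9 members were at least 1 higher, where 20.1% of all genes were, and 6 at least 1 lower, where 16.3% of all genes were. The highest were Rab40c (2.42), Rab1b (1.64), Rab5c (1.53) and Rab15 (1.46), and the lowest Rab3b (-3.22), Rab33a (-2.39), Rab36 (-1.55) and Rab22a (-1.38). Rab22a turned to 1.40 and Rab40c was 1.22 without the cell of most reads, and in cluster 3 alone Rab15 turned to -0.51. Of these 8 Rab1b and Rab33a stayed past the line under all 10 settings, which do not include cluster 3 alone. Rab33a stood at 37.5 CPM naive and 51 CPM cultured in C57BL/6, and at 39.5 and 9.42 CPM in CAST/Ei. Rab3a gave 1.31, Rab27b 0.26, Rab5a -0.36, Rab11a 0.44, Rab7 0.45 and Rab6b 0.45. No difference between the responses was tested.

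Rab33a and Rab3c were higher in naive neuron-like cells of both strains, and Rab20 in the other naive cells. In naive C57BL/6 cells 16 members were called higher in neuron-like cells, where 33.2% of all genes were, and 8 lower, where 24.5% of all genes were. Scaling by the median of ratios gave 12 and 11. In naive CAST/Ei cells the counts were 17, beside 31.6%, and 8, beside 23.8%. Naive other cells are 1 cluster, led by endothelial and interferon-induced genes. By the mean of log2(CPM + 1), the measure used to class clusters, the neuron list was its highest at 6.20, against 4.87 for the glial list. By summed level the glial list was higher, at 12888 CPM in C57BL/6 and 21259 CPM in CAST/Ei against 7724 and 7435 CPM for the neuron list, and the fibroblast list stood at 12033 and 2373 CPM. The part of these markers in the class ratios was not tested. Rab33a, Rab3b and Rab3c were among the 4 members highest over other cells in both strains, with log2 ratios of 4.54, 2.93 and 3.10 in C57BL/6 and, for Rab33a and Rab3c, 5.08 and 4.12 in CAST/Ei. There no Rab3b read was found among the 15230461 reads of naive other cells. Taking 3 reads as the limit of a count of 0, the summed Rab3b level was at least 127.9-fold higher in neuron-like cells. This bound covers read counting only and not the spread between cells. The reads of other cells came from few cells, and amplified copies count as reads. In naive CAST/Ei neuron-like cells 1 cell gave 41.3% of the Rab3b reads and most cells had none, and without that cell the bound was 76.2-fold. In C57BL/6 the Rab3b and Rab9b ratios were 4.30 and 5.66 without the cell of most reads. The remaining ones of those 4 were Rab9b in C57BL/6 (4.45) and Rab36 in CAST/Ei (4.19).

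Rab20, a Rab of phagosomes and early endosomes that interferon is known to induce, was higher in the naive other cells. It stood at 99.3 CPM there against 7.653 CPM in neuron-like cells of C57BL/6 (-3.53), and at 253 against 8.45 CPM in CAST/Ei (-4.75). In single other cells it ran from 0 to 478 CPM with a median of 0 in C57BL/6, and from 0 to 937 CPM with a median of 195 in CAST/Ei. Also lower in neuron-like cells were Rab34 (-2.72), Rab36 (-1.996) and Rab31 (-1.78) in C57BL/6, and Rab43 (-2.56), Rab5c (-1.99) and Rab8b (-1.84) in CAST/Ei. The Rab36 value in C57BL/6 rested on single cells: its median in other cells was 0 CPM with a highest cell at 809, and the ratio was 2.08 without the cell of most reads and 2.91 with naive cells classed one by one. Rab34 in C57BL/6 was -1.91 and Rab43 in CAST/Ei -1.12 without the cell of most reads, and with cells classed one by one Rab43 was 1.28. Rab3a did not separate the classes, at 242 CPM in other and 306 CPM in neuron-like cells of C57BL/6 (0.34) and at 247 and 246 CPM in CAST/Ei (-0.01). Rab27b gave 1.71 and 1.33, Rab5a -0.98 and 0.74, Rab11a 0.11 and 0.54, Rab7 0.19 and 0.17, and Rab6b 2.17 and 0.60.

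In cultured C57BL/6 cells 17 members were called higher in neuron-like than in other cells, where 18.3% of all genes were, and 10 lower, where 29.7% of all genes were. Scaling by the median of ratios gave 19 and 5. In CAST/Ei the counts were 16, beside 20.2%, and 5, beside 25%. Rab27b and Rab15 were among the 4 highest in both strains, with 3.37 and 3.01 for C57BL/6 and 4.45 and 2.78 for CAST/Ei. The others were Rab33a (4.20) and Rab39 (4.19), a Rab of endosomal and Golgi traffic, in C57BL/6, and Rab23 (2.86) and Rab27a (2.78) in CAST/Ei. In C57BL/6 79.3% of the Rab27b reads came from 1 cell, and in CAST/Ei 68.3% of the Rab23 reads. Rab27b was 1.63 in C57BL/6 and 3.69 in CAST/Ei, and Rab23 in CAST/Ei 1.74, without the cell of most reads. Rab34 was lowest in both, at -2.41 and -3.80, followed by Rab43 (-2.30), Rab8a (-1.58) and Rab5c (-1.44) in C57BL/6, and Rab13 (-2.28), Rab8a (-1.56) and Rab20 (-1.28) in CAST/Ei. Rab20 was -1.90 there without the cell of most reads, and Rab8a in C57BL/6 was 0.12 with cells clustered by Ward's method. Rab3a gave 1.53 and 1.58, Rab5a 1.72 and 1.11, Rab11a 0.45 and 0.53, Rab7 -1.36 and -0.78, and Rab6b 2.91 and 2.01.

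Shares of cells with reads were compared after thinning each cell to 200000 reads, which left out neuron-like cells of too few reads: 7 naive and 7 cultured in C57BL/6, 8 naive and 6 cultured in CAST/Ei. Detection meant at least 5 reads. Rab3a was detected in 100% of naive cells of both strains and in 50% of cultured cells of each (60.6% and 63.3% without thinning), against 14.1% and 25% of other cultured cells. Rab27b was detected in 83.5% of naive C57BL/6 and 88.5% of naive CAST/Ei cells, and in 7.69% and 24.1% of cultured ones (89.7%, 91.03%, 18.2% and 35% without thinning). At this threshold it was detected in none of 71 and 36 other cultured cells, which allows shares of cells with 5 reads of up to 4.23% and 8.33%. At least 1 read was present in 7.04% and 13.9% of these thinned cells, and at least 5 reads in 5.13% and 2.56% without thinning. For Rab31 the shares were 72.5% naive and 88.5% cultured in C57BL/6, and 28.4% and 61.1% in CAST/Ei (74.1%, 87.9%, 42.3% and 66.7% without thinning). Rab21 was detected in 80.7% and 73.1% for C57BL/6 and in 66.2% and 79.6% for CAST/Ei (93.97%, 75.8%, 87.2% and 80% without thinning), so in C57BL/6 its share went against its summed ratio.

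Genes that act on Rab proteins were taken from a list of regulators by role. All 10 of its GDI, escort and prenylation genes were in the table, as were 32 of 43 exchange factors, 34 of 36 GTPase-activating proteins and 60 of 77 effectors. In C57BL/6 culture the numbers called higher and lower were 0 and 3, 6 and 6, 2 and 10, and 9 and 14, in that order. In CAST/Ei they were 1 and 3, 11 and 4, 8 and 6, and 10 and 10. Of all genes, 20.5% were called higher and 24.7% lower in C57BL/6, and 22.9% and 23% in CAST/Ei. The median log2 ratios were -0.50, -0.42, -0.34 and -0.47 for C57BL/6, and -0.33, 0.48, -0.08 and -0.17 for CAST/Ei, beside the -0.17 and -0.01 of all genes. The lowest in C57BL/6 were Rph3a, the Rab3 and Rab27 effector rabphilin, from 160.9 to 9.07 CPM (-4.01), and Tbc1d8 (-2.41). The 3 lowest in CAST/Ei were Rph3a, from 102.2 to 8.62 CPM (-3.42), the Rab27 effector Sytl3 (-2.58) and the exocyst subunit Exoc6 (-2.25). The highest were Rilpl2 (5.20), Dennd4b (4.50) and Sgsm2 (3.353) in C57BL/6, and Tbc1d12 (3.58), Tbc1d4 (3.22) and Lrrk2, a kinase that phosphorylates Rab8 and Rab10 (2.83), in CAST/Ei. Thus Rph3a was the lowest of these regulators in both strains. The highest ones had low naive levels. Rilpl2, Dennd4b and Sgsm2 stood at 4.89, 9.59 and 10.9 CPM in naive C57BL/6 neuron-like cells. Tbc1d12, Tbc1d4 and Lrrk2 stood at 11.95, 7.24 and 10.3 CPM in those of CAST/Ei. How far single cells weigh in the sums of the regulators was not examined.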

How the data were processed

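The authors deposited 1 table of raw counts, reads of each gene in each cell, for 11251 genes. Its 516 cells fall into 132 (C57BL/6, naive), 111 (C57BL/6, cultured), 174 (CAST/Ei, naive) and 99 (CAST/Ei, cultured). Cells were purified over Percoll, captured on a Fluidigm C1 chip and sequenced with all conditions combined on each sequencing run, per the labels' protocols. Bowtie2, SAMtools and build mm10 are named per the submitters' processing notes. Filters before deposit, the counter, its annotation and whether it used strand were not given in the sources used here. The libraries hold no molecular identifiers, so amplified copies count as reads. Gene positions and exon lengths are those of the mouse GENCODE annotation of GRCm38, the build also called mm10.

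The Rab genes and the marker, role and regulator lists were chosen with earlier results of these data known. Cells were clustered without the Rab genes (2000 variable genes, 20 components, 15 neighbours, Leiden resolution 1, 15 clusters) and classed by the highest marker list and the leading genes of their cluster. Names rest on rebuilt clusters. No doublet caller was run, and cells with the highest glial markers were left out as an alternative. Genes passed with at least 1 CPM in 1 of the classes compared, and 1 CPM was added before log2. All 49 members passed except Rab37 (C57BL/6) and Rab3b (CAST/Ei) in the comparisons of cultured classes. Of members with at least 10 CPM in 1 class, the 4 highest and 4 lowest ratios of each comparison were named, with Rab3a, Rab27b, Rab5a, Rab11a, Rab7 and Rab6b for their roles, and for clusters the 4 with the largest ratio. Of regulators, the 3 highest and 3 lowest were named. Other genes are named beside them as examples, chosen after their values were seen. Intervals are exact Poisson intervals and cover counting error only. The functions that compute levels, ratios and calls were tested on simulated data. Software was python 3.11.15, numpy 2.4.6, pandas 2.3.3, scipy 1.17.1, scikit-learn 1.9.0, igraph 0.11.9, leidenalg 0.10.2 and matplotlib 3.10.9.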

Additional observations from a re-analysis of the deposited data

How the results depend on the processing

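No paired analysis was possible because the numbers in the titles count cells and no test was run. Each comparison was recomputed under 10 other settings, and, chosen after seeing the data, in cluster 3 or cluster 5 alone and without the cell of most reads for each gene. Of the counts of members past 2-fold, or past 4-fold between naive clusters, 192 values stayed close to the reported one and 24 moved. Among ratios of single members and shares, 2386 values stayed close or kept their call. In this set 241 lost their call, 23 gained a call, 36 called ratios changed sign and 54 values moved in another way.

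A pseudocount of 10 CPM lowered the counts to 6 higher in C57BL/6 culture, 8 higher in CAST/Ei culture, 5 lower between cultured strains, 4 and 3 lower in neuron-like than other cultured cells of C57BL/6 and CAST/Ei, 4 and 5 lower for the naive classes, and 2 lower for the difference of the culture ratios. Between the cultured strains, 6 were higher with median-of-ratios scaling, 4 higher and 5 lower with the mean of each cell's CPM, and 4 lower with Ward clusters. Without the cells of highest glial markers, 18 and 11 members were lower in neuron-like than other cultured cells of C57BL/6 and CAST/Ei, and 18 were higher in the difference of culture ratios. Cluster 3 alone gave 5 higher in CAST/Ei culture and 5 higher between cultured strains. Cluster 5 alone gave 22 higher between cultured strains and 24 higher in the difference of culture ratios. Without the cell of most reads, 5 were higher in C57BL/6 and 9 in CAST/Ei culture, and 3 and 5 were lower in neuron-like than other naive cells of C57BL/6 and CAST/Ei. For these changes the cause was not tested, and leaving out the cells of highest glial markers may keep mostly cells of cluster 5.

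Some log2 ratios changed sign. In C57BL/6 culture these were Rab21 (-0.18), Rab5a (-0.051) and Rab6a (-0.18) in cluster 3, Rab31 (-0.50) and Rab38 (-0.46) in cluster 5, Rab8b (-0.60) and Rab13 (-0.44) without the cells of highest glial markers, and Rab22a (-0.15) without the cell of most reads. In CAST/Ei culture they were Rab5b (-0.48), Rab23 (-0.044) and Rab35 (-0.85) in cluster 3, Rab34 (-0.48) in cluster 5 and -0.96 without the glial-marker cells, and Rab24 (-0.63) without the cell of most reads. Between the cultured strains they were Rab4a (0.50), Rab21 (0.20) and Rab22a (0.60) in cluster 3, Rab31 in cluster 5 (0.44) and without the glial-marker cells (0.22), Rab22a without the cell of most reads (1.74) and Rab34 with Ward clusters (0.046). In the difference of culture ratios they were Rab15 (-0.51) and Rab22a (0.28) in cluster 3, Rab22a (1.40) without the cell of most reads and Rab34 (0.19) with Ward clusters. Between neuron-like and other cells they were, in culture, Rab8a in C57BL/6 with Ward clusters (0.12), and Rab39b in C57BL/6 (-0.31) and Rab9b in CAST/Ei (-0.017) without the glial-marker cells. Without the cell of most reads they were Rab22a (-1.17) in cultured C57BL/6 cells, and Rab36 (2.08), Rab5c (0.026) and Rab22a (0.082) in naive C57BL/6 cells. In naive cells classed one by one they were Rab36 (2.91) and Rab38 (1.37) in C57BL/6, and Rab43 (1.28) and Rab27a (0.065) in CAST/Ei. The cause was not tested.

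Scaling by the median of ratios moved the median of all genes from 0.15 to 0.00 between cultured strains, from -0.41 and -0.17 to 0.00 for the cultured classes, and from 0.24 and 0.19 to 0.03 and 0.02 for the naive classes. Depth limits Rab37 in C57BL/6 and Rab3b in CAST/Ei, with 9 and 14 reads in cultured neuron-like cells.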
